A study of Homo sapiens with 16 samples.

Results

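The 9 genes described here belong to the complement system: the receptors CR1, C3AR1 and C5AR1, the soluble components C3, CFD, C1QA, C1QB and C1QC, and the membrane inhibitor CD59. They were taken by symbol from the 60603 genes of the count table, and each of the 9 symbols matched 1 gene. CR1 was selected on its measured SKNO-1 values, because its level with ATRA and Corin together was above the sum of the single effects. Its SKNO-1 values, and every departure from additivity in SKNO-1, are therefore given as a description without a test, as are the differences in CR1 between the lines. The other 8 genes were joined to it as complement genes, with earlier results of these data known.

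Total RNA was sequenced from 2 established human acute myeloid leukaemia lines. SKNO-1 carries the RUNX1-RUNX1T1 fusion and was grown with GM-CSF at 10 ng/mL, whereas U-937 is a monocyte-like line grown without it, so line and medium cannot be told apart. Each line was kept for 24 h with DMSO (the vehicle), with 0.1 µM ATRA (all-trans retinoic acid), with 0.1 µM Corin, or with ATRA plus Corin at that same dose, which makes 8 groups of 2 libraries. ATRA is the ligand of the retinoic acid receptors, and Corin inhibits the LSD1 demethylase and the HDAC1 and HDAC2 deacetylases of the CoREST complex. The labels do not say that the libraries of a group came from separate cultures, so p-values measure the spread between these libraries, which may be technical.

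Complement is a cascade of plasma proteins in which recognition by C1q, the lectins or spontaneous turnover leads to cleavage of C3, deposition of C3b and release of the peptides C3a and C5a. Monocytes, macrophages and neutrophils read these products through CR1, which binds C3b and C4b and serves as a cofactor for their breakdown, and through C3AR1 and C5AR1, the receptors of C3a and C5a. CFD (factor D) is the serine protease that starts the alternative pathway, C1QA, C1QB and C1QC are the chains of C1q, made largely by macrophages, and CD59 blocks the membrane attack complex on the cell's own surface.

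CR1 (ENSG00000203710.11) lies on chr1:207496147-207641765, plus strand, in GENCODE release 44 on GRCh38, between CR2 and CR1L in the cluster of complement regulators. C3AR1 (ENSG00000171860.4) lies on chr12:8056844-8066359, minus strand, and C5AR1 (ENSG00000197405.8) on chr19:47290023-47322066, plus strand. C3 (ENSG00000125730.16) lies on chr19:6677704-6730562, minus strand, and overlaps GPR108 on the same strand. CFD (ENSG00000197766.7) lies on chr19:859453-867884, plus strand, and overlaps MED16 on the other strand. C1QA (ENSG00000173372.17), C1QC (ENSG00000159189.12) and C1QB (ENSG00000173369.16) follow each other on the plus strand at chr1:22635077-22639678, chr1:22643014-22648110 and chr1:22652762-22661637. CD59 (ENSG00000085063.16) lies on chr11:33703010-33736479, minus strand.

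Promoter sequences were given by RefSeq (GRCh38.p14) for 7 of the 9 genes, in 11 windows of 300 bases. The 250 bases before the start are shown for the receptors, to set the C3a and C5a receptors beside CR1, and for CFD, which carries the highest GC content of the 9 transcripts (66.5%). A set of 4 short motifs were searched on both strands of each 300-base window: AGGTCA and AGTTCA, the hexamers bound by nuclear receptors such as the retinoic acid receptors, GAGGAA, the core bound by PU.1, and TTGCNNAA, a core bound by C/EBP factors. Capitals mark the matches.
CR1, chr1:207495907-207496156, plus strand: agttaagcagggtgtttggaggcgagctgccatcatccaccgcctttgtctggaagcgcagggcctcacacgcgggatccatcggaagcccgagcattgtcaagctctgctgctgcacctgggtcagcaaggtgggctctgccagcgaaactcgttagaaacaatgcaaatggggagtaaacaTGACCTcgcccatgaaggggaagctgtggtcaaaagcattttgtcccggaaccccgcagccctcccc
C3AR1, chr12:8066360-8066609, minus strand: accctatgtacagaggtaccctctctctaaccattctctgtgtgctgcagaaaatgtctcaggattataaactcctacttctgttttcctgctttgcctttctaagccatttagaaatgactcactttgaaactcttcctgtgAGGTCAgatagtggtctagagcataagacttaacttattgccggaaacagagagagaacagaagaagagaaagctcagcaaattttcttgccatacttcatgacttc
C5AR1, chr19:47309611-47309860, plus strand: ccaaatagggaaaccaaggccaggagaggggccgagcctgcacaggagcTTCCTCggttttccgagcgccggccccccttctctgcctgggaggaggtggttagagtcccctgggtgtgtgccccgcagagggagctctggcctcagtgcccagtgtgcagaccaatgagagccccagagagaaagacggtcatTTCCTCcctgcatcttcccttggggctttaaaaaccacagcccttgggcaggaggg
CFD, chr19:859414-859663, plus strand: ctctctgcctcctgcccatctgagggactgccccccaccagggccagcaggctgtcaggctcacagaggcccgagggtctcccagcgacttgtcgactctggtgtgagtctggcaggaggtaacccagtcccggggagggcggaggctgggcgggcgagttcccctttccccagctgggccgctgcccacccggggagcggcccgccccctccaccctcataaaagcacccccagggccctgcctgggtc
The CR1 window holds AGGTCA on the opposite strand, 67 bases before the start, and the C3AR1 window holds it on the gene's strand, 107 bases before. The C5AR1 window, which lies inside the GENCODE span of the gene, holds GAGGAA on the opposite strand at 56 and 201 bases before the start. The CFD window, most of which also lies inside the GENCODE span of its gene, holds none of the 4 motifs. The printed CR1 window ends just inside the GENCODE span of CR1. Over all 35116 RefSeq windows of this length, 13.8% hold AGGTCA, 10.4% AGTTCA, 27.9% GAGGAA and 10.5% TTGCNNAA, so each match is a description of the sequence only.

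Library totals, rounded, ran from 32800000 to 37800000 estimated counts in SKNO-1 and from 28400000 to 37600000 in U-937. Of the line identity genes, RUNX1T1 was over 1 CPM (estimated counts scaled to a common library total after TMM adjustment) in SKNO-1, where HOXA9 and HOXA10 were at 0, and of 7 myeloid markers, 7 in SKNO-1 and 6 in U-937 averaged over 1 CPM. The summed markers of T cells, erythroid cells and epithelium stayed at or under 0.187 CPM in every library. The SKNO-1 DMSO libraries stood further apart than the other pairs, with an SD of 0.361 for their log2 difference against 0.108 to 0.208 elsewhere, and that difference correlated with transcript GC content (Pearson r = 0.811, across genes, which are not independent replicates). Other pairs showed weaker correlations with GC content: 0.586 for U-937 DMSO, 0.405 for U-937 with both agents and -0.435 for SKNO-1 with ATRA. The remaining pairs ran from -0.164 to 0.116.

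In U-937, CR1, C3AR1, C5AR1, C3 and CFD rose with ATRA and with ATRA plus Corin, and all of these but CFD were higher with both agents than with ATRA. C1QA had more counts with either treatment, and C1QB, C1QC and CD59 had 0 to 3 counts in every U-937 group. In SKNO-1 the same agents gave a mixed picture, in which CFD rose with ATRA while C3AR1 and CD59 fell, C5AR1 rose with Corin and with both agents, and C3 went from 2 counts with DMSO to 355 and 442. In bulk RNA, fewer cells that express a gene and less RNA per cell cannot be told apart. C3 in SKNO-1 and C1QA in U-937 passed the filter on low counts only through the treated groups in which they were high, so they are described by counts and counting intervals and left out of the tallies. With ATRA alone, 5 of 5 genes were called higher in U-937 (edgeR's quasi-likelihood test, Benjamini-Hochberg adjusted p under 0.05), where 41.8% of 17717 genes were called and 21.7% were called higher. In SKNO-1, 1 of 4 was higher and 2 were lower, with 6.76% of 17479 genes called, 2.96% higher and 3.79% lower. That share was 29.1% without SKNO-1 DMSO replicate 1 and 24.7% without replicate 2, and 3.18% and 3.07% without ATRA replicate 1 and 2. With Corin alone, 3 of 5 were higher in U-937, with 12.9% of genes called and 8.55% higher, and 3 of 4 were higher in SKNO-1, with 37.9% called and 20.5% higher. The shares were 7.46% and 7.14% without U-937 DMSO replicate 1 and 2, and 21.2% and 19.9% without SKNO-1 Corin replicate 1 and 2. With both agents, 5 of 5 were higher in U-937, with 65.3% called and 33.1% higher. In SKNO-1 both agents left 3 of 4 higher and 1 lower, with 46.7% called, 24.7% higher and 22% lower. The 3 comparisons of a line share its DMSO libraries. C1QA, C1QB and C1QC in SKNO-1 and C1QB, C1QC and CD59 in U-937 did not pass the filter.

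CR1 in SKNO-1 stood at 17.4 and 21.0 CPM in the DMSO libraries, 39.7 and 40.5 with ATRA, 16.8 in each library with Corin, and 162 and 156 with both agents. The groups did not overlap, and their order from low to high was Corin, DMSO, ATRA and both. On the log2 scale CR1 differed from DMSO by 1.06 (SE 0.0922) with ATRA, by -0.20 (SE 0.0945) with Corin and by 3.05 (SE 0.0956) with both. Corin alone thus left CR1 near or slightly under DMSO, while adding Corin to ATRA went with a 3.96-fold higher level than ATRA alone. The difference with Corin depended on the DMSO pair. It was -0.35 without DMSO replicate 1 and -0.07 without replicate 2. The effect of both agents exceeded the sum of the single effects by 2.18 (SE 0.130), the value that led to its choice. That departure ranked 6 among the 10488 genes that averaged 5 CPM or more.

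In U-937, which was not used to pick CR1, the receptor was measured at 13.7 and 14.1 CPM with DMSO, 138 and 125 with ATRA, 23.4 and 25.1 with Corin, and 287 and 301 with both agents. No 2 groups overlapped. CR1 rose 9.47-fold with ATRA (log2 3.24, SE 0.108, adjusted p = 7.03e-17), 1.75-fold with Corin (log2 0.80, SE 0.107, adjusted p = 7.62e-06) and 21.1-fold with both (log2 4.402, SE 0.112, adjusted p = 1.23e-19). Both agents together gave a higher level than ATRA alone (log2 1.16, SE 0.0955, adjusted p = 4.36e-10) and than Corin alone (log2 3.60, SE 0.106, adjusted p = 3.38e-18). The departure from additivity was 0.36 (SE 0.143, adjusted p = 0.0760), did not pass the threshold, and ranked 1732 of 10606 genes. It passed with DESeq2 (0.39, adjusted p = 0.0403) and with the GC trend removed (0.41, adjusted p = 0.0117).

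**Figure D1:**
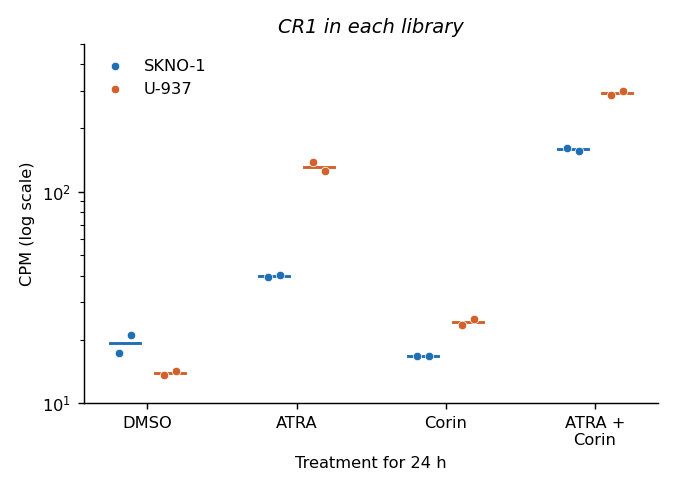
CR1 in each of the 16 libraries, in CPM on a log axis, by treatment for 24 h, with points for libraries and a bar for the mean of the 2 libraries of a group. In SKNO-1 the Corin libraries (16.8 CPM) sit beside DMSO and those with both agents reach 156 to 162 CPM, whereas in U-937 ATRA alone reaches 125 to 138 CPM and both agents 287 to 301 CPM.

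CR1L, the CR1-like gene just downstream, had at most 25.3 estimated counts in any library, against 417 to 9710 for CR1 in U-937 and 572 to 5206 in SKNO-1. By Pearson correlation of log2 CPM over all 16 libraries, the genes most like CR1 were B3GNT8 (r = 0.96), the oxysterol receptor NR1H3, ARL14EPL, THEMIS2 and CD300LF (r = 0.95 each). Over the 8 SKNO-1 libraries they were the taurine transporter SLC6A6 (r = 0.99), SMG6, KMO, ADIPOR2 and RUBCN, and over the 8 U-937 libraries ADGRE3 (r = 0.998), TRAF3IP3, IRF7, DCSTAMP and TMEM173. No gene stood in more than 1 of these lists. The libraries share their treatment groups, so any gene with a like order of groups scores high, and the values are a description.

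C3AR1, the C3a receptor, responded in opposite directions in the lines. In SKNO-1 it was at 19.1 and 19.0 CPM with DMSO, 11.8 and 12.0 with ATRA, 20.1 and 19.4 with Corin, and 13.4 and 13.1 with both. Both groups that held ATRA were below both that did not. C3AR1 fell by 0.68 on the log2 scale with ATRA (SE 0.0891, adjusted p = 0.00293) and by 0.52 with both agents (SE 0.0888, adjusted p = 0.00210), and its difference with Corin was 0.05 (SE 0.0875, adjusted p = 0.658). In U-937 it was at 2.10 and 2.44 CPM with DMSO, 8.41 and 9.14 with ATRA, 1.92 and 2.58 with Corin, and 27.8 and 30.2 with both. The Corin libraries lay on either side of the DMSO libraries, and the libraries with both agents stood above all others. C3AR1 rose 3.86-fold with ATRA (log2 1.95, SE 0.175, adjusted p = 3.51e-09) and 12.8-fold with both (log2 3.68, SE 0.172, adjusted p = 5.37e-15), whereas Corin alone gave -0.02 (SE 0.199, adjusted p = 0.962).

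C5AR1, the C5a receptor, was low in SKNO-1, at 0.665 and 0.316 CPM with DMSO, 0.240 and 0.135 with ATRA, 3.31 and 3.06 with Corin, and 2.56 and 2.64 with both. Its DMSO pair summed to 35 counts and its ATRA pair to 13. C5AR1 rose 6.51-fold with Corin (log2 2.70, SE 0.322, adjusted p = 0.000514) and 5.32-fold with both (log2 2.41, SE 0.326, adjusted p = 0.000673). Under other settings or with single libraries left out, C5AR1 ran from 2.23 to 3.29 with Corin and from 1.95 to 3.01 with both on the log2 scale. With ATRA its log2 difference was -1.37 (SE 0.464, adjusted p = 0.1495), and this passed the threshold without SKNO-1 DMSO replicate 2 (-1.87, adjusted p = 0.00410) and with no filter on low counts (-1.41, adjusted p = 0.0228). In U-937 C5AR1 was at 1.32 and 1.09 CPM with DMSO, 4.94 and 5.16 with ATRA, 4.79 and 4.08 with Corin, and 56.9 and 58.8 with both. It rose by 2.06 with ATRA (SE 0.182, adjusted p = 2.54e-09) and 1.88 with Corin (SE 0.185, adjusted p = 6.12e-08), and by 5.58 with both (SE 0.163, adjusted p = 1.18e-18), a 47.9-fold rise.

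C3, the central component, was nearly absent from untreated SKNO-1, with 1 estimated count in each DMSO library, 4 and 3 with ATRA, 187 and 168 with Corin, and 212 and 230 with both agents. The Corin libraries together held 355 counts against 2 with DMSO, a ratio of 186 with an exact 95% counting interval of 51.2 to 1544, and the libraries with both agents 442 counts, a ratio of 245 (67.5 to 2030). With ATRA alone it held 7 counts against 2, a ratio of 3.61 whose interval, 0.687 to 35.6, includes no difference. In U-937 C3 was at 1.53 and 0.848 CPM with DMSO, 7.31 and 8.16 with ATRA, 26.5 and 25.3 with Corin, and 139 in each library with both. The groups did not overlap, and the order DMSO, ATRA, Corin and both was the same as in SKNO-1. C3 rose 6.41-fold with ATRA (log2 2.68, SE 0.184, adjusted p = 3.20e-11), 21.5-fold with Corin (log2 4.43, SE 0.169, adjusted p = 1.27e-14) and 115-fold with both (log2 6.85, SE 0.167, adjusted p = 6.18e-20).

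The effective length that the authors' RSEM files gave C3 differed between libraries, from 510 and 989 bases in U-937 with DMSO to 1661 and 2083 with both agents, so the mix of C3 transcripts to which reads were assigned was not constant. Per length, C3 went from 1.58 ± 0.113 TPM with DMSO to 52.5 ± 4.16 TPM with both in U-937 (SD, n = 2), a smaller contrast than in CPM. That was not particular to C3. CFD, with an effective length of 1101 bases in every library, went from 3.50 ± 0.672 to 13.7 ± 0.651 TPM, against 3.92 to 21.5 CPM. For CR1 the change was from 2.73 ± 0.148 to 34.6 ± 1.29 TPM, against 13.9 to 294 CPM. C3AR1 and C5AR1 also rose less in TPM, and the cause was not tested. GPR108, which shares part of the C3 span, was at 27.3 to 29.3 CPM in U-937 with DMSO and 60.9 to 61.0 with both agents.

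CFD, factor D, was at 8.88 and 5.24 CPM in SKNO-1 with DMSO, 20.0 and 21.8 with ATRA, 12.7 and 13.0 with Corin, and 31.3 and 35.3 with both. All treated libraries were above both DMSO libraries. CFD rose by 1.57 on the log2 scale with ATRA (SE 0.212, adjusted p = 0.00327), by 0.87 with Corin (SE 0.213, adjusted p = 0.0145) and by 2.24 with both (SE 0.213, adjusted p = 0.000123). The rise with Corin was 0.51 without DMSO replicate 2 and did not pass without Corin replicate 1 (adjusted p = 0.0707) or Corin replicate 2 (adjusted p = 0.0825). The DMSO libraries, whose difference followed GC content, also differed most in CFD among the SKNO-1 pairs as a ratio, and with the GC trend removed the SKNO-1 gain of both agents over ATRA moved from 0.67 (adjusted p = 0.0262) to 0.19 (adjusted p = 0.0477).

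In U-937 CFD was at 4.51 and 3.33 CPM with DMSO, 23.5 and 22.6 with ATRA, 5.67 and 4.18 with Corin, and 19.6 and 23.4 with both. The Corin and DMSO libraries overlapped, as did those with ATRA and with both. CFD rose 5.86-fold with ATRA (log2 2.55, SE 0.169, adjusted p = 2.06e-11) and 5.46-fold with both (log2 2.45, SE 0.169, adjusted p = 9.21e-12), and the difference with Corin, 0.33 (SE 0.182, adjusted p = 0.259), did not pass. CFD is uncertain because it overlaps MED16 on the other strand and the use of strand in counting is not given in the sources used here. MED16 had 69 to 240 estimated counts in SKNO-1 and 171 to 304 in U-937, against 98 to 1177 for CFD.

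C1QA, the first chain of C1q, was the C1q chain with measurable counts. Its U-937 libraries held 2 and 2 estimated counts with DMSO, 26 and 41 with ATRA, 14 and 9 with Corin, and 106 and 67 with both, while the SKNO-1 libraries held 0 to 2. C1QA in U-937 thus had 67 counts with ATRA against 4 with DMSO (ratio 14.9, exact 95% counting interval 5.54 to 56.1) and 173 with both agents (ratio 42.2, interval 16.2 to 157). With Corin the ratio was 5.18 (interval 1.77 to 20.6). These ratios carry counting error only and no test. C1QB had at most 2 counts in any library, and C1QC had 1 count in 1 U-937 library with both agents and 0 in the other 15. Over the U-937 DMSO libraries, the 0 counts of C1QC allow a level of up to 0.0489 CPM. C1QA and C1QC are both overlapped by ENSG00000289692, a protein-coding gene on the same strand, so how the reads of C1QA were divided is uncertain.

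CD59, the inhibitor of the membrane attack complex, told the lines apart. SKNO-1 held 94.6 and 88.8 CPM with DMSO, 62.0 and 60.1 with ATRA, 152 and 143 with Corin, and 110 in each library with both, whereas the 8 U-937 libraries held 0 or 1 estimated count each. With DMSO, 0 counts in U-937 against 6643 in SKNO-1 make CD59 at least 2047-fold lower in U-937 (floor of 3 counts over the group, counting error only), given without a test because CD59 passed the filter through SKNO-1 alone. In SKNO-1 CD59 fell by 0.59 on the log2 scale with ATRA (SE 0.0627, adjusted p = 0.00110) and rose by 0.68 with Corin (SE 0.0621, adjusted p = 0.000143). With both agents it rose by 0.26 (SE 0.0621, adjusted p = 0.00994), a call that was lost without either library that had received both (adjusted p = 0.0632 and 0.0709). In the authors' TPM, CD59 in SKNO-1 was not higher with both agents. Its mean was 48.4 ± 10.3 TPM with DMSO and 42.3 ± 2.44 with both (SD, n = 2), so the direction of this small difference depends on the scale. An overlapping gene on the same strand, AL049629.2, had 0 to 106 estimated counts in SKNO-1 and 0 in U-937.

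**Figure D2:**
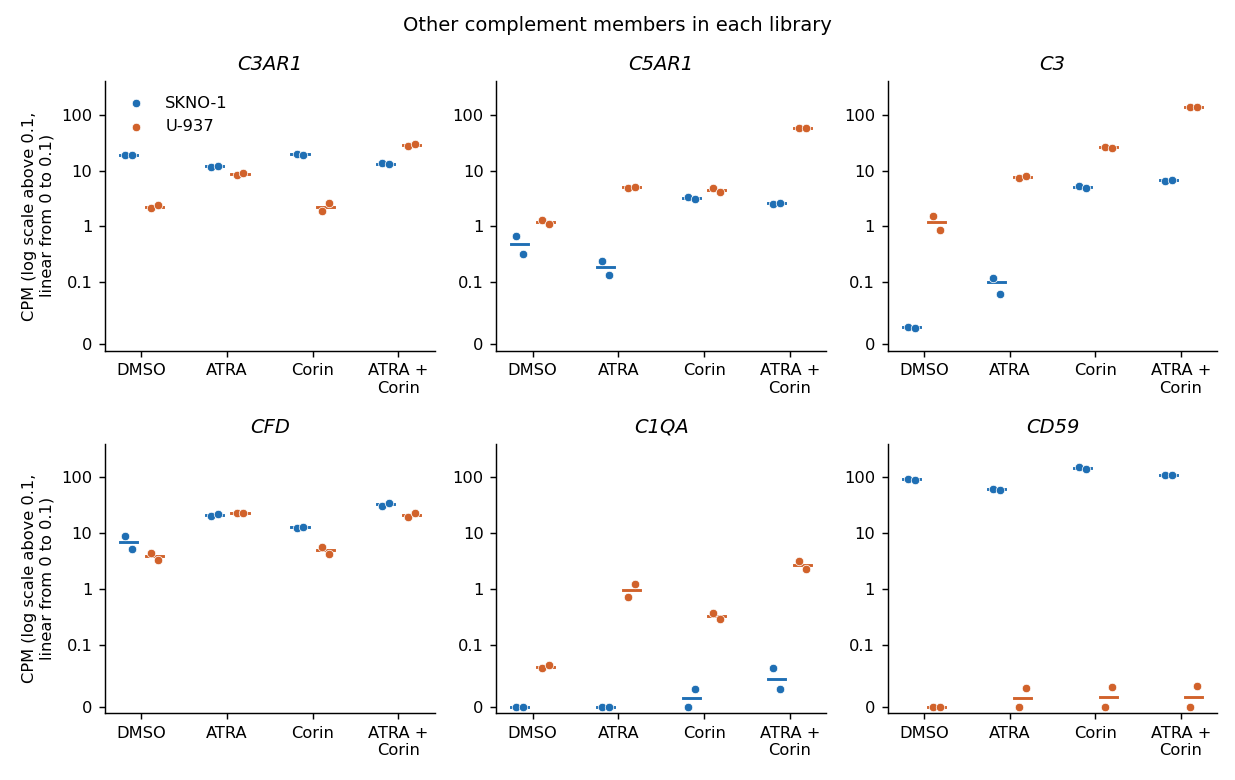
Levels of C3AR1, C5AR1, C3, CFD, C1QA and CD59 in each of the 16 libraries, in CPM on an axis that is linear from 0 to 0.1 and logarithmic above, by treatment, with points for libraries and bars for means of 2. C5AR1 and C3 in U-937 climb to 57.9 and 139 CPM with both agents, C3AR1 falls with ATRA in SKNO-1 and rises in U-937, and CD59 stays at or near 0 in U-937.

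Compared per length in the authors' TPM, the order of the genes differed between the lines. In SKNO-1 with DMSO CD59 led at 48.4 ± 10.3 TPM (SD, n = 2), followed by C3AR1 at 8.23 ± 2.07, CFD at 5.26 ± 0.608 and CR1 at 2.80 ± 0.834, with C5AR1 at 0.205 and C3 at 0.005. In U-937 with DMSO the highest was CFD at 3.50 ± 0.672, followed by CR1 at 2.73 ± 0.148, C3 at 1.58 ± 0.113, C3AR1 at 1.23 and C5AR1 at 0.575 ± 0.120. With both agents U-937 held C3 at 52.5 ± 4.16 TPM, CR1 at 34.6 ± 1.29, C5AR1 at 18.6 ± 1.22, CFD at 13.7 ± 0.651, C3AR1 at 10.2 ± 0.205 and C1QA at 2.12 ± 0.594. The move to both agents in U-937 thus put C3 and CR1 at the top, while in SKNO-1 CD59 (42.3 ± 2.44) stood above CFD (21.0 ± 3.41) and CR1 (17.3 ± 0.658).

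**Figure D3:**
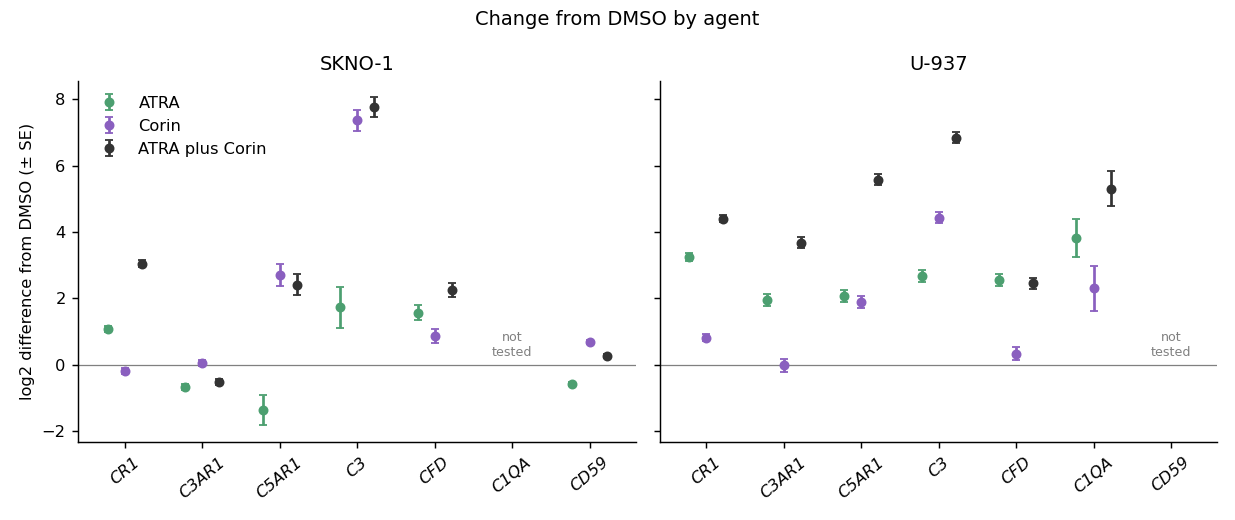
Log2 differences from DMSO of 7 of the genes (C1QB and C1QC passed no filter) for ATRA, Corin and both agents in each line, with error bars of 1 SE. In SKNO-1 C3, from 2 counts with DMSO, reaches 7.36 with Corin and 7.76 with both, and in U-937 every tested gene lies above 0 with ATRA and with both, while C3AR1 (-0.02) and CFD (0.33) lie near 0 with Corin. The bars of C3 in SKNO-1 may be too short, as the authors' deposited SE with Corin was 1.09, against 0.305 here.

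The next question was what each agent added to the other. In U-937, adding Corin to ATRA raised 4 of 5 genes, with 47.4% of genes called and 22.5% higher, and adding ATRA to Corin raised 5 of 5, with 60.5% called and 29.9% higher. CFD was the exception to the first, at -0.10 (SE 0.147, adjusted p = 0.601). C5AR1 gained 3.52 over ATRA (SE 0.134, adjusted p = 8.40e-16) and 3.70 over Corin (SE 0.136, adjusted p = 1.57e-16). C3 gained 4.17 over ATRA (SE 0.132, adjusted p = 4.37e-17) and 2.42 over Corin (SE 0.119, adjusted p = 2.09e-14).

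In SKNO-1, adding Corin to ATRA raised 3 of 4 genes, with 44.8% of genes called and 23% higher: C5AR1 (3.78, SE 0.384, adjusted p = 0.000181), CFD (0.67) and CD59 (0.85, SE 0.0628, adjusted p = 4.28e-05). The share called was 27.1% and 27.7% without ATRA replicate 1 and 2, and 28.5% without ATRA plus Corin replicate 1. C3 held 442 counts against 7 with ATRA (ratio 67.9, interval 32.7 to 170). C3AR1 differed by 0.15 (SE 0.0900, adjusted p = 0.198) and passed with the GC trend removed (0.24, adjusted p = 0.0296). The CFD call was lost without any 1 of the ATRA, Corin or combined libraries (adjusted p = 0.0572 to 0.148). Adding ATRA to Corin raised CFD (1.38, SE 0.204, adjusted p = 0.00575) and lowered C3AR1 (-0.58, SE 0.0889, adjusted p = 0.00679) and CD59 (-0.42, SE 0.0619, adjusted p = 0.00539), with 10.4% of genes called, 4.82% higher and 5.6% lower. That share was 38.9% without either SKNO-1 DMSO library and 2.19% to 5.02% without any 1 of the other SKNO-1 libraries. C5AR1 (-0.29, adjusted p = 0.495) did not pass, and C3 held 442 counts against 355 with Corin. The 3 calls became 1 without SKNO-1 ATRA plus Corin replicate 1, 0 without its replicate 2, 0 without Corin replicate 1 and 1 without Corin replicate 2. With the GC trend removed the CFD gain was 0.63 (adjusted p = 0.000137).

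Departure from additivity is what remains of the combined log2 effect once both single effects are subtracted. In U-937 it was called for 2 of 5 genes, the peptide receptors, with 23.4% of 17717 genes called and 8.09% called higher. For C3AR1 the single effects summed to 1.93 and both agents gave 3.68, a departure of 1.75 (SE 0.248, adjusted p = 8.50e-06). For C5AR1 the sum was 3.95 and both gave 5.58, a departure of 1.64 (SE 0.241, adjusted p = 1.49e-05). C3 (-0.26, SE 0.231) and CFD (-0.44, SE 0.234) had values below 0 that did not pass (adjusted p = 0.469 and 0.198). In SKNO-1 0.463% of genes were called, a share that was 6.32% without DMSO replicate 1, 30.9% without DMSO replicate 2, and 0.0384% to 0.109% without any 1 of the other libraries. There the departures beside that of CR1 were 1.08 for C5AR1 (SE 0.542), 0.16 for CD59 (SE 0.0879), 0.10 for C3AR1 (SE 0.126), -0.19 for CFD (SE 0.291) and -1.33 for C3 (SE 0.652). The C3 value rests on 2 counts with DMSO and 7 with ATRA, and the CFD value ran from -0.92 with the GC trend removed to 0.19 without DMSO replicate 2. For C3 with ATRA in SKNO-1 the authors' deposited SE was 2.20, against 0.623 here, so the SE of the C3 departure may be too small.

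**Figure D4:**
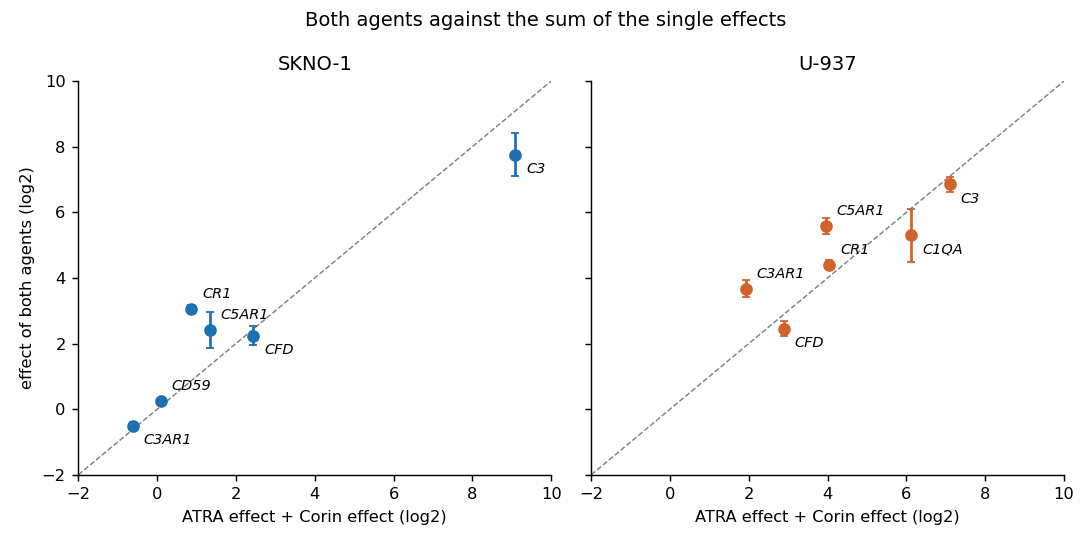
Effect of both agents against the sum of the single effects, in log2 differences from DMSO, with the dashed line marking equality and error bars of 1 SE of the departure. CR1 in SKNO-1 lies 2.18 above the line, C3AR1 and C5AR1 in U-937 lie 1.75 and 1.64 above it, and C3 lies near or below it in both lines.

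The lines were then compared in a fit of all 16 libraries. With DMSO, C3AR1 was lower in U-937 (2.19 against 20.0 CPM in that fit, log2 -3.19, SE 0.148, adjusted p = 4.69e-13), as was CFD (3.78 against 7.41 CPM, -0.96, SE 0.215, adjusted p = 0.000826). C5AR1 was higher in U-937 (1.16 against 0.514 CPM, 1.18, SE 0.284, adjusted p = 0.00121). C3 had 74 counts in U-937 against 2 in SKNO-1 (ratio 40.03, interval 10.7 to 337), and C1QA had 4 counts against 0. Both are given without a test, because no SKNO-1 DMSO library reached the filter's cutoff for either gene. Of the genes tested here, which leave out C3, C1QA and CD59, C5AR1 was thus higher and C3AR1 and CFD lower, with 64.8% of 19872 genes called, 31.7% higher and 33.1% lower. CR1, not tested here, was at 13.4 CPM in U-937 and 20.3 in SKNO-1. Without SKNO-1 DMSO replicate 1 the C5AR1 difference was 1.83 and the CFD difference -0.50, and without replicate 2 the C5AR1 difference was 0.76.

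The effect of ATRA was larger in U-937 for 3 of 4 genes (C3AR1, C5AR1, CFD and C3), with 19.4% of genes called and 10.6% higher. It differed by 2.67 for C3AR1 (SE 0.197, adjusted p = 1.50e-08), by 3.47 for C5AR1 (SE 0.449, adjusted p = 1.45e-05) and by 1.02 for CFD (SE 0.281, adjusted p = 0.0162), the last call being lost without SKNO-1 DMSO replicate 1 (0.55, adjusted p = 0.0928), U-937 DMSO replicate 2 (0.76, adjusted p = 0.142) or any 1 of the 4 ATRA libraries (adjusted p = 0.0576 to 0.0950). The effect of Corin differed for 1 of 4, with 12.8% of genes called and 7.49% lower: C3 rose less in U-937, by -2.94 (SE 0.641, adjusted p = 0.00293), a value that rests on the 2 counts of the SKNO-1 DMSO libraries. For C3 with Corin in SKNO-1 the authors' deposited SE was 1.09, against 0.305 here. The SE of this C3 difference may thus be too small. The share called was 21.5% without SKNO-1 DMSO replicate 2, 7.77% and 7.32% without SKNO-1 Corin replicate 1 and 2, and 7.94% without U-937 DMSO replicate 1. Without SKNO-1 DMSO replicate 1 the count of called members became 3, with C5AR1 (-1.43, adjusted p = 0.0146) and CFD (-0.96, adjusted p = 0.00878) added. The effect of both agents was larger in U-937 for 2 of 4, with 40.6% of genes called and 17.9% higher, by 4.24 for C3AR1 (SE 0.194, adjusted p = 6.21e-12) and 3.21 for C5AR1 (SE 0.360, adjusted p = 6.90e-07). For CFD it differed by 0.25 (SE 0.281, adjusted p = 0.546) and ran from -0.18 to 0.92 over the alternatives. The difference was 0.58 without SKNO-1 DMSO replicate 2, and 0.92 with the GC trend removed (adjusted p = 0.00179). With that trend removed the Corin effect on CFD differed by -0.89 (adjusted p = 0.0101). For CR1 the differences of effect were 2.22 with ATRA, 1.00 with Corin and 1.40 with both, given without a test.

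Of 50 other complement genes, 25 were tested in SKNO-1 and 26 in U-937. Treated groups alone carried 7 of the SKNO-1 genes and 5 of the U-937 genes past the filter, and these are left out of the counts, LRP1 and CFI in SKNO-1 and LRP1 and VSIG4 in U-937 among them. Of the other 18 in SKNO-1, 8 were higher and 4 lower with ATRA (6.76% of all genes called), 12 higher and 2 lower with Corin (37.9% called), and 13 higher and 2 lower with both (46.7% called). Their median log2 differences were 0.40, 0.92 and 1.14, against 0.01, 0.00 and 0.05 over all genes tested. Of the other 21 in U-937, 13 were higher and 6 lower with ATRA (41.8% called), 8 higher and 0 lower with Corin (12.9% called), and 15 higher and 4 lower with both (65.3% called), at medians of 0.89, 0.38 and 1.99 against 0.02, 0 and 0.03. Among the other receptors, ITGAM, the alpha chain of CR3, went in SKNO-1 from 0.375 CPM with DMSO to 35.5 with Corin (log2 6.56, SE 0.138, adjusted p = 2.40e-07) and 115 with both (8.25, SE 0.137, adjusted p = 5.70e-08). In U-937 it went from 4.70 CPM to 104 with ATRA (4.46, SE 0.122), 54.9 with Corin (3.55, SE 0.121) and 375 with both (6.31, SE 0.128). VSIG4, a macrophage receptor of C3b, went in U-937 from 3 counts over the DMSO libraries to 581 with ATRA and 2084 with both, given without a test.

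LRP1, a scavenger receptor that also binds C1q, went in SKNO-1 from a summed 6 counts with DMSO to 995 with Corin and in U-937 from 9 to 47, given without a test. CFI, the protease that cleaves C3b with CR1 as a cofactor, went with ATRA in SKNO-1 from 10 counts, all in 1 DMSO library, to 153, likewise without a test. CD93 rose there by 2.08 (SE 0.142, adjusted p = 0.000111). Among the genes of the list called with ATRA, the largest falls in SKNO-1 were in CLU (-1.48, SE 0.200, adjusted p = 0.00334) and in the second C5a receptor C5AR2 (-1.14, SE 0.144, adjusted p = 0.00243). In U-937 they were in C8B (-1.77, SE 0.376, adjusted p = 0.000469) and COLEC12 (-1.49, SE 0.196, adjusted p = 1.45e-06). With both agents C1QBP fell by 2.10 (SE 0.115, adjusted p = 9.67e-14) and CLU by 0.80 (SE 0.124, adjusted p = 4.76e-06) in U-937, and CALR by 0.99 (SE 0.0771, adjusted p = 4.86e-05) and C1QBP by 0.48 (SE 0.0562, adjusted p = 0.000339) in SKNO-1. CD55, the decay accelerating factor and a neighbour of CR1 on chromosome 1, was chosen after its values were seen: in U-937 its mean was 44.3 ± 2.58 CPM under DMSO, 70.1 ± 2.42 under ATRA, 42.9 ± 2.02 under Corin and 378 ± 42.3 under both (SD, n = 2), a departure from additivity of 2.47 (SE 0.147), given as a description.

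**Figure D5:**
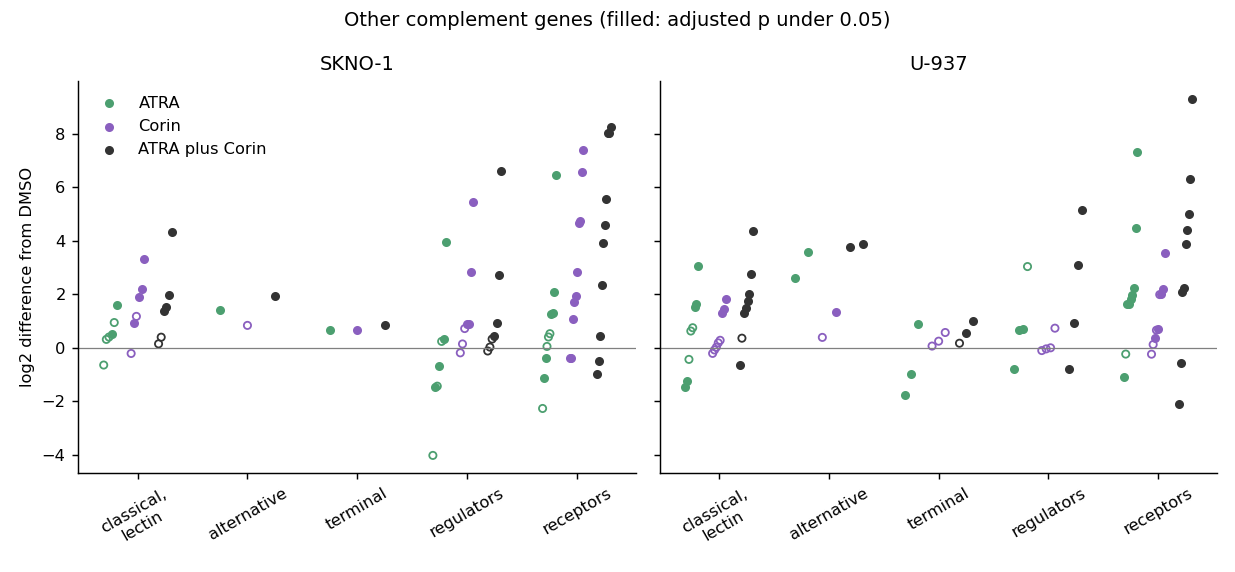
Log2 differences from DMSO of the other complement genes that were tested, by role and agent in each line, with filled points for an adjusted p under 0.05 and open points for the rest. Genes that passed the filter only through treated groups are drawn too (7 for SKNO-1, 5 for U-937). With both agents the receptor ITGAM lies at 8.25 among the SKNO-1 points and at 6.31 among those of U-937.

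Markers of other cell types were low in all groups but not constant. The summed B cell markers ran from 0.500 to 0.578 CPM in SKNO-1 with DMSO and from 1.88 to 2.71 with Corin, and from 2.69 to 2.82 in U-937 with DMSO and from 4.96 to 5.14 with Corin, with MS4A1 at 0 in both lines. The summed hepatocyte markers, of the main source of plasma complement, ran from 0.407 to 0.532 CPM in U-937 with DMSO and from 1.99 to 2.63 with both agents. The summed fibroblast markers ran from 0.0679 to 0.0939 CPM in U-937 with DMSO, from 0.559 to 0.849 with Corin and from 0.412 to 0.769 with both agents, and were at most 0.120 in SKNO-1. The 7 myeloid markers summed to 644 to 653 CPM in U-937 with DMSO and to 3705 to 3982 with both. In SKNO-1 they summed to 2974 to 3996 CPM with DMSO, 3846 to 4178 with ATRA, 2382 to 2533 with Corin and 3037 to 3106 with both. The part of these markers in the results was not tested.

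In the authors' deposited table for SKNO-1, CD59 with both agents had a log2 fold change of 0.19 and an adjusted p of 0.383, where the fit here gave 0.26 and 0.00994. In the authors' deposited table for U-937, C1QA with Corin had a log2 fold change of 2.35 and no adjusted p. For the other tested genes against DMSO the authors' deposited tables put the gene on the same side of 0.05 as the fit here or gave no adjusted p.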

How the data were processed

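RNA was measured in 16 libraries, 2 in each of 8 groups of line and treatment, per the labels. Reads were paired-end of 100 bases from a stranded total RNA kit, per the labels' protocols. The names of the deposited data carry a single-end mark, so the read layout is uncertain. Per the submitters' processing notes the tools were Trimmomatic, STAR, RSEM, deepTools and DESeq2, with the build hg38; versions and the annotation release are not given in the sources used here. The authors deposited RSEM estimated counts per gene, of which 20.4% of the values above 0 are not whole, and TPM, which RSEM scales by effective length. The authors' deposited comparison tables hold log2 fold changes and adjusted p-values from DESeq2.

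Counts were rounded and tested with edgeR 4.0.16 in R 4.3.3 (quasi-likelihood, robust, TMM scaling, filterByExpr with a minimum count of 10), with Benjamini-Hochberg adjustment over all genes tested. Each line was fitted alone, and comparisons between lines used all 16 libraries. A gene was called at an adjusted p under 0.05. Genes that passed the filter only through treated groups, or between lines through 1 line, were described without a test, as was C3 between the lines with DMSO. The SE is the log2 difference divided by the root of F. Intervals are 95% exact counting intervals, floors are 3 counts over a group, and both cover counting error only. A single gene tested by exact permutation of 2 against 2 libraries could not go below a two-sided p of 0.333. A check on simulated counts used the same spread for all genes and no GC trend. Changes were placed under both agents only, in genes with ample counts. It cannot speak to the GC-related SKNO-1 DMSO difference, to departures from additivity or to genes with few counts.

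The 9 genes and all lists were chosen with earlier results of these data known. Of the 50 other complement genes, the text could name, per treatment, the called ones averaging 1 CPM or more that stood at either extreme, 2 upward and 2 downward. The 5 genes most like CR1 were taken under the same minimum. Alternatives were DESeq2 1.42.0, its size factors, library totals without TMM, no filter, removal of the GC trend, a replicate block and leaving out each library. Replicate numbers were not taken to pair the libraries.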

Additional observations from a re-analysis of the deposited data

Results flagged for a closer look

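In 6 cases the effect of a treatment differed between the lines by the test of the difference itself (edgeR's quasi-likelihood test of the interaction over all 16 libraries). The ATRA effect was larger in U-937 by 2.67 on the log2 scale for C3AR1 (SE 0.197, adjusted p = 1.50e-08), by 3.47 for C5AR1 (SE 0.449, adjusted p = 1.45e-05) and by 1.02 for CFD (SE 0.281, adjusted p = 0.0162). The CFD call was lost when any 1 of 6 libraries was left out (adjusted p = 0.0576 to 0.142): SKNO-1 DMSO replicate 1, U-937 DMSO replicate 2 and the 4 ATRA libraries. The Corin effect on C3 differed by -2.94 (SE 0.641, adjusted p = 0.00293), a value that rests on 2 counts in the SKNO-1 DMSO libraries. At such counts the SE may be too small. C3 passed the filter of this fit through the U-937 DMSO libraries too. The effect of both agents was larger in U-937 by 4.24 for C3AR1 (SE 0.194, adjusted p = 6.21e-12) and by 3.21 for C5AR1 (SE 0.360, adjusted p = 6.90e-07). Line and culture medium cannot be told apart in these differences.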

How the results depend on the processing

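No value changed direction with a call under any alternative run. Counts of called genes among the 9 kept within 1.5 times in all comparisons but 2. These counts include C3, C1QA and, between the lines, CD59, also where the tallies above leave them out. Those tallies were not recounted under the alternatives. The 3 calls of both agents against Corin in SKNO-1 ranged from 0 to 4 when single libraries were left out. The 1 call of the difference in Corin effect became 2 with the GC trend removed and 2 with the replicate block and the GC trend removed, and ranged from 1 to 3 when single libraries were left out. The SKNO-1 departure of CR1, 2.18, ranged from 2.09 to 2.37 when single libraries were left out, and was 2.18 with the replicate block and 2.22 with the block and the GC trend removed. Differences between same-numbered libraries correlated from -0.488 to 0.418, so the numbers were not taken as pairs. The replicate block alone ended no call among the members that were given a test. With the GC trend removed as well, it ended the call of CFD for both agents against ATRA in SKNO-1 (adjusted p = 0.0554).

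Over all genes, removal of the GC trend moved the share of higher calls from 66.0% to 51.6% for Corin in U-937, from 34.6% to 52.2% for the departure in U-937, from 67.9% to 50.2% for the departure in SKNO-1 and from 41.4% to 55.0% for the difference in Corin effect. It moved the number of genes called from 1181 to 2590 for ATRA in SKNO-1, from 81 to 699 for the SKNO-1 departure and from 2538 to 4555 for the difference in Corin effect. Leaving out SKNO-1 DMSO replicate 1 or 2 moved the first and second of these further, to 5335 or 4522 for ATRA in SKNO-1 and to 1156 or 5648 for the SKNO-1 departure, and from 1822 to 7126 or 7118 for both agents against Corin in SKNO-1. Library totals moved the share of higher calls from 54.5% to 42.3% for the difference in ATRA effect, and the median of all genes from -0.01 to 0.15 between the lines with DMSO. The causes were not tested. Depth limits C3 in SKNO-1 and C1QA in U-937, whose DMSO libraries held 2 and 4 counts in all.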
